A study of Homo sapiens with 18 samples.

Results

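The HOXA, MEIS1 and KMT2A leukaemia programme was followed across the 6 groups of the series as 10 genes taken by symbol: HOXA3, HOXA5, HOXA7, HOXA9, HOXA10, MEIS1, PBX3, KMT2A, MEN1 and DOT1L. They are 10 of the 19068 genes listed for either cell line, and the readthrough transcript HOXA10-HOXA9 was not counted among them. All 10 were listed for MOLM-13, among 17475 genes, and 7 were listed for HL-60, among 17110 genes. HOXA3, HOXA9 and MEIS1 were listed for MOLM-13 only. The lowest value listed in either line was a linear value of about 1. Why a gene is not listed is not given in the sources used here, so its level is unknown and cannot be taken as 0.

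RNA from the human acute myeloid leukaemia lines HL-60 and MOLM-13 was sequenced after 48 h (day 2), with 3 replicates in each of 6 groups and 18 samples in all. Each line had a group with the solvent DMSO, a group with DAC (decitabine, an analogue of deoxycytidine that traps DNA methyltransferases on DNA) and a group with NTX-301, a compound that the labels give by code name and that has been developed as an inhibitor of DNA methyltransferase 1. The doses in the labels are 30 nM (HL-60) and 15 nM (MOLM-13), in wording that may cover both drugs or DAC alone, so whether the 2 drugs were at matched doses is unknown and dose cannot be told apart from line. Both are established lines: HL-60 is promyelocytic and has no known KMT2A rearrangement, and MOLM-13 is monocytic, carries the KMT2A::MLLT3 fusion gene and has an internal tandem duplication in FLT3. The replicates were wells of a plate, as far as the labels say, so p-values measure the spread between wells.

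The HOXA genes encode homeodomain transcription factors that lie side by side in a cluster on chromosome 7 and are normally active in early blood progenitors and shut down as cells mature. MEIS1 and PBX3 belong to the TALE class of homeodomain proteins, which bind DNA together with HOXA proteins. KMT2A is a histone H3 lysine 4 methyltransferase that is held at the HOXA genes and MEIS1 by menin, the product of MEN1. Fusions such as KMT2A::MLLT3 also draw in DOT1L, a methyltransferase that marks the core of histone H3 on transcribed genes, and keep HOXA9 and MEIS1 active in leukaemia.

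Inhibitors of DNA methyltransferases act at CG dinucleotides, so the CG content of the promoters is shown first, for MEIS1, PBX3, HOXA9 and HOXA10. In MOLM-13, MEIS1 and PBX3 ended higher with NTX-301 than with DAC, and so did HOXA3 and HOXA5, which are not shown. HOXA9, HOXA10 and MEIS1 were lower with DAC than with DMSO, and HOXA10 was lower with NTX-301 too. These genes thus do not form separate classes of response, and a link between CG content and direction was not tested. The sequences are the 250 bases before the gene's start from RefSeq on GRCh38.p14, 5′ to 3′ on the gene's strand, with each CG in capitals. The expression values were made on another build, hg19, and methylation was not measured here. The MEIS1 window is chr2:66434875-66435124 on the plus strand, the PBX3 window chr9:125747933-125748182 on the plus strand, the HOXA9 window chr7:27165538-27165787 on the minus strand and the upstream HOXA10 window chr7:27179862-27180111 on the minus strand.
MEIS1: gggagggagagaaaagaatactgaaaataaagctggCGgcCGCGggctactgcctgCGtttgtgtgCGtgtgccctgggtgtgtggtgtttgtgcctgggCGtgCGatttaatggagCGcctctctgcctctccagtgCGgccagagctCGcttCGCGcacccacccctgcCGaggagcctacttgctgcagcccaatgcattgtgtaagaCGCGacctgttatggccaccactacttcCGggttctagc
PBX3: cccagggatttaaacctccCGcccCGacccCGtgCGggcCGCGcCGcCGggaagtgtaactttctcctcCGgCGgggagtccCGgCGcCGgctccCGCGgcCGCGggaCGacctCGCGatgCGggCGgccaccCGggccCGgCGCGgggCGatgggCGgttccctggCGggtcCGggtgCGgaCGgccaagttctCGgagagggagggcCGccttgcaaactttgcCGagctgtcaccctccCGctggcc
HOXA9: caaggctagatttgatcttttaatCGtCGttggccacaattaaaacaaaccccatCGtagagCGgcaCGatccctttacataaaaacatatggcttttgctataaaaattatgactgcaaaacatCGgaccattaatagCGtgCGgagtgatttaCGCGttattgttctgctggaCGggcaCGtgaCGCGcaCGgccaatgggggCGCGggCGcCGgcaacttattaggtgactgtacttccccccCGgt
HOXA10: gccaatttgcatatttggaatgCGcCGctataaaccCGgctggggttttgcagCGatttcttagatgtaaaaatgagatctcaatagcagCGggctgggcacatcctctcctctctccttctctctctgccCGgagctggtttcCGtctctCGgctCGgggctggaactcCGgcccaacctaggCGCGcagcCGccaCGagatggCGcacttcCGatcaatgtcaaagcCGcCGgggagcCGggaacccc
These windows held 16 CG (MEIS1), 36 CG (PBX3), 20 CG (HOXA9) and 19 CG (HOXA10), and the median over the 35116 windows of the same length was 11. The PBX3 window had more CG than 95.1% of them. RefSeq windows matched 8 of the 10 genes (16 windows in all, from 0 to 36 CG), and HOXA5 and DOT1L had no match. HOXA3 had 7 windows, with 0 to 26 CG. The letters TGACAG, a core bound by MEIS proteins, searched on both strands, were in the PBX3 window and in 1 of the 2 MEN1 windows, and in 13.0% of all windows. The letters TGATNNAT, a composite of PBX and HOX half-sites, searched on both strands, were in 0 of the 16 windows and in 6.47% of all windows. No member window held both, so no matches overlapped, and a match describes letters only.

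The deposited values are log2 normalized expression values with 1 value per gene and sample, and the read depth is unknown. Replicates lay close together: within a group the median gene had an SD of 0.027 to 0.031 (HL-60) or 0.037 to 0.043 (MOLM-13). The labels' cell types were set beside marker lists. All 6 granulocyte precursor markers, among them MPO and ELANE, were listed in both lines, and 5 of 6 monocytic markers were listed, with CD14 absent from both tables. Listing alone thus does not tell the labels apart. The mean log2 values of MPO, CEBPE and CTSG were higher in HL-60. Those of ELANE, AZU1, PRTN3 and all 5 listed monocytic markers were higher in MOLM-13, and levels were not tested between lines. Of markers of other cells, HL-60 listed 1 of 5 for T cells, 1 of 4 for B cells, 2 of 5 erythroid, 1 of 4 epithelial and 0 of 4 fibroblast markers. MOLM-13 listed 2, 1, 3, 2 and 2 of them, in the same order. In bulk RNA, fewer cells of a type and less RNA per cell cannot be told apart. A gene is called here when limma's two-sided adjusted p (Benjamini-Hochberg over all genes tested) is under 0.05, and "rose" or "fell" is used of called genes only. The DAC and NTX-301 contrasts share the DMSO samples of their line, so their values are set side by side and not compared as independent results.

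In MOLM-13, the HOXA genes did not move as one. HOXA3 rose with both drugs, HOXA9 and HOXA10 fell with DAC, HOXA10 fell with NTX-301 as well, and HOXA5 and HOXA7 were not called against DMSO with either drug. HOXA3, an anterior gene of the cluster, had log2 values of 9.40, 9.41 and 9.43 with DMSO, 9.50, 9.67 and 9.66 with DAC, and 9.82, 9.90 and 9.94 with NTX-301. The 3 groups did not overlap: every DAC sample lay above every DMSO sample, and every NTX-301 sample above every DAC sample. The log2 difference from DMSO was 0.47 ± 0.053 (SE, n = 3 per group) with NTX-301, a 1.39-fold rise with an adjusted p of 2.6e-05, and 0.19 ± 0.053 with DAC, with an adjusted p of 0.013. The DAC call was lost without DAC replicate 2 (0.17, adjusted p 0.052) or DAC replicate 3 (0.17, adjusted p 0.0555). In the RefSeq annotation HOXA3 overlaps HOXA4, HOXA5, HOXA6 and the antisense gene HOXA-AS3, which were listed too. The library kit keeps strand, but whether strand was used in the counting is not given in the sources used here, so the split of reads between these genes is uncertain.

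HOXA9, the posterior HOXA gene most closely tied to KMT2A-rearranged leukaemia, had log2 values of 12.43, 12.46 and 12.41 with DMSO and 12.30, 12.27 and 12.27 with DAC. All DAC samples lay below all DMSO samples, and HOXA9 fell by 0.15 on the log2 scale (SE 0.053, adjusted p 0.0402). This call was close to the threshold and was lost without any 1 of the 6 DMSO and DAC replicates, where the log2 difference lay between −0.14 and −0.16 for the left-out DMSO replicates and between −0.15 and −0.17 for the left-out DAC replicates, with adjusted p from 0.0565 to 0.109. It was also lost without the mean-variance trend of the test (adjusted p 0.0858) and after quantile normalization (−0.097, adjusted p 0.196). With NTX-301, HOXA9 was 12.48 in replicate 1, 12.25 in replicate 2 and 12.23 in replicate 3. Replicate 1 was the highest of all 9 MOLM-13 samples and the other 2 replicates were the lowest, so the group spanned both other groups (SD 0.14 against 0.021 with DMSO and 0.018 with DAC). The log2 difference of NTX-301 from DMSO was −0.11 ± 0.053 and was not called (adjusted p 0.102). Without NTX-301 replicate 1 it was −0.20, with an adjusted p of 0.000291.

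The readthrough transcript HOXA10-HOXA9, which shares exons with HOXA9 and HOXA10 and was listed for MOLM-13 only, had the opposite pattern in those replicates. It was at 6.96 in NTX-301 replicate 1 and at 8.42 and 8.47 in replicates 2 and 3, against 6.93, 6.56 and 6.93 with DMSO and 6.69, 7.42 and 6.62 with DAC. NTX-301 replicate 1, high for HOXA9, thus lay near the DMSO samples for the readthrough, and the 2 replicates low for HOXA9 were the highest for the readthrough. Its log2 difference with NTX-301 was 1.14 ± 0.34 (adjusted p 0.0157), and it was 1.64 without NTX-301 replicate 1. That call was lost without NTX-301 replicate 2 (0.91, adjusted p 0.0679), NTX-301 replicate 3 (0.89, adjusted p 0.0696) or DMSO replicate 2 (1.02, adjusted p 0.0571), without the mean-variance trend (adjusted p 0.0528) and with robust variance estimates (adjusted p 0.0888). Its difference with DAC was 0.10 ± 0.34 and was not called (adjusted p 0.842). Reads from the shared exons can be assigned to either gene, so the values of HOXA9 and HOXA10 are uncertain to that extent. The readthrough held 1.65% to 6.87% of the 2 linear values summed, and that sum had log2 values of 12.51, 12.34 and 12.33 in the NTX-301 replicates, against 12.45 to 12.48 with DMSO and 12.30 to 12.33 with DAC. NTX-301 replicate 1 thus stayed the highest of the 9 samples in the sum too. The share and the sum take linear values as proportional to transcript amount, which is uncertain because the normalization is unknown.

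**Figure D1:**
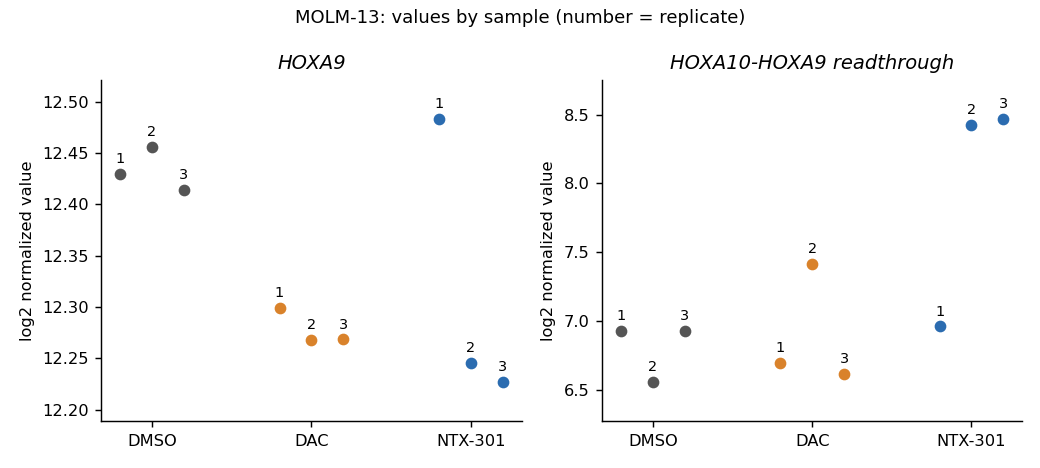
Log2 normalized values of HOXA9 (left axis panel) and of the HOXA10-HOXA9 readthrough (right panel) in the 9 MOLM-13 samples by treatment, with the replicate number at each point. NTX-301 replicate 1 is the highest sample for HOXA9 (12.48) and the lowest of its group for the readthrough (6.96), while replicates 2 and 3 are lowest for HOXA9 and highest for the readthrough (8.42 and 8.47).

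HOXA10, the neighbouring posterior gene, had log2 values of 11.07, 11.15 and 11.09 with DMSO, 10.93, 10.88 and 10.93 with DAC, and 10.92, 10.88 and 10.99 with NTX-301. All 6 drug samples lay below all 3 DMSO samples, and the drug groups overlapped each other. HOXA10 fell by 0.19 with DAC (SE 0.036, adjusted p 0.00163) and by 0.17 with NTX-301 (SE 0.036, adjusted p 0.00202), and both calls held under all 17 alternative settings tried. None of these settings changed how reads were split between HOXA10 and the readthrough. The group means correspond to linear values for HOXA10 of 2201 (DMSO), 1930 (DAC) and 1950 (NTX-301). Those of the readthrough were 112, 120 and 248, in the same order. HOXA10 also overlaps the antisense gene HOXA10-AS in the annotation. The part of read assignment in the HOXA10 falls was not tested.

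HOXA5 stood at 9.90, 9.84 and 9.89 with DMSO, 9.66, 9.83 and 9.77 with DAC, and 9.91, 9.93 and 9.95 with NTX-301. The DAC samples lay below the DMSO samples and the NTX-301 samples above them, but neither difference was called (−0.12, adjusted p 0.0592, and 0.055, adjusted p 0.366). Without DAC replicate 2 the DAC difference was −0.16, with an adjusted p of 0.0275, and without DAC replicate 1 it was −0.074 and not called. It was called with centred samples (−0.16, adjusted p 0.0101) and after quantile normalization (−0.16, adjusted p 0.0194). HOXA7 stood at 8.57, 8.55 and 8.50 with DMSO, 8.45, 8.39 and 8.47 with DAC, and 8.48, 8.64 and 8.54 with NTX-301. Its DAC samples were again below its DMSO samples, at a difference of −0.10 (adjusted p 0.154), and its NTX-301 samples overlapped them (0.017, adjusted p 0.820).

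MEIS1, the cofactor that together with HOXA9 drives this type of leukaemia in mouse models, went in opposite directions with the 2 drugs. Its log2 values were 12.51, 12.57 and 12.62 with DMSO, 12.41, 12.44 and 12.38 with DAC, and 12.63, 12.69 and 12.70 with NTX-301. The 3 groups did not overlap, with DAC lowest and NTX-301 highest, although the lowest NTX-301 sample lay only just above the highest DMSO sample. MEIS1 fell by 0.16 with DAC (SE 0.032, adjusted p 0.00256), and with NTX-301 it rose by 0.11, with an SE of 0.032 (adjusted p 0.0174). The rise was not called without DMSO replicate 1 (0.079), NTX-301 replicate 2 (0.097) or NTX-301 replicate 3 (0.093), with adjusted p from 0.0614 to 0.0681, nor with samples centred on their medians (0.076, adjusted p 0.0616), and it was 0.19 after quantile normalization. The fall was not called after quantile normalization (−0.090, adjusted p 0.0524).

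PBX3, which binds DNA with HOXA9 and MEIS1, was at 12.69, 12.71 and 12.71 with DMSO, 12.69, 12.68 and 12.64 with DAC, and 12.80, 12.85 and 12.81 with NTX-301. Every NTX-301 sample lay above every other sample, and PBX3 rose by 0.12 (SE 0.023, adjusted p 0.0015), a call that held under all 17 alternative settings, with 0.21 after quantile normalization. Its DAC difference of −0.035 was not called (adjusted p 0.272).

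KMT2A had log2 values of 12.37, 12.26 and 12.33 with DMSO, 12.40, 12.40 and 12.41 with DAC, and 12.41, 12.42 and 12.44 with NTX-301. All drug samples lay above all DMSO samples, by less than 0.2 in every case. The difference was 0.10 ± 0.029 with NTX-301 (adjusted p 0.0135) and 0.079 ± 0.029 with DAC (adjusted p 0.0497). The DAC call stands at the threshold and was kept in 4 of 17 alternative settings. It was lost without any 1 of 8 replicates, all but DMSO replicate 1, with adjusted p from 0.0629 to 0.199 and the lowest difference, 0.049, without DMSO replicate 2. The NTX-301 call was lost without DMSO replicate 2 (0.070, adjusted p 0.0580) or NTX-301 replicate 3 (0.092, adjusted p 0.0521), and with centred samples (0.071, adjusted p 0.0786). After quantile normalization the KMT2A differences were 0.14 with DAC and 0.17 with NTX-301, and with centred samples the DAC difference was 0.042. The tables give 1 value for KMT2A and 1 for MLLT3, so transcripts of the fusion gene and of the intact genes cannot be told apart. MLLT3, the fusion partner and a subunit of the super elongation complex, was not called in MOLM-13 with DAC (0.040, adjusted p 0.587; −0.0090 after quantile normalization) or NTX-301 (0.093, adjusted p 0.164).

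MEN1 and DOT1L were not called in MOLM-13. MEN1 was at 10.83, 10.75 and 10.75 with DMSO, 10.82, 10.81 and 10.79 with DAC, and 10.70, 10.65 and 10.82 with NTX-301, and the groups overlapped. DOT1L was at 12.85, 12.66 and 12.66 with DMSO, 12.51, 12.63 and 12.68 with DAC, and 12.58, 12.57 and 12.61 with NTX-301. DMSO replicate 1 lay above the other DMSO samples for DOT1L, and all NTX-301 samples lay below all DMSO samples. The NTX-301 difference of −0.14 ± 0.053 had an adjusted p of 0.0578, with an interval from −0.25 to −0.018 before adjustment. It was called in 8 of 17 alternative settings, among them those without DMSO replicate 2 or 3 (−0.17 each). Without the high DMSO replicate 1 it was −0.071, and after quantile normalization −0.043 (adjusted p 0.628), not called in either. The ends of DOT1L overlap AP3D1 and PLEKHJ1 in the annotation.

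In counts, 2 of the 10 genes rose and 3 fell with DAC in MOLM-13, beside 36.6% of all 17475 genes tested that were called in either direction, 15.4% higher and 21.2% lower. With NTX-301, 4 rose and 1 fell, beside 45.1% of all genes, 20.3% higher and 24.8% lower. A share of 5 of 10 is near the background in both comparisons. The median log2 difference of the 10 genes was −0.11 with DAC and 0.036 with NTX-301, where the median of all genes was 0.0013 and 0.0034. With each sample centred on its median, 1 rose and 7 fell with DAC (1960 higher and 5731 lower among all genes, against 2689 and 3705 as deposited), and 2 rose and 3 fell with NTX-301 (2735 and 5760, against 3543 and 4337). Monocytic markers also moved in MOLM-13. Their log2 sum lay between 16.58 and 16.66 with DMSO, between 17.31 and 17.42 with DAC and between 16.71 and 16.78 with NTX-301. LYZ, the gene of lysozyme, made up 89.7% to 93.7% of that sum, and without it the sum of the other 4 listed markers lay between 13.29 and 13.36, 13.41 and 13.45, and 13.40 and 13.43. Gene by gene, 3 of the 5 rose and 0 fell with DAC (LYZ by 0.78, ITGAM by 0.64 and CSF1R by 0.51), and 3 rose and 1 fell with NTX-301. The granulocyte precursor markers moved in MOLM-13 too. Of these 6, 4 rose and 0 fell with DAC (MPO by 0.72 and CEBPE by 0.66 the most), and 3 rose and 1 fell with NTX-301. The part of these shifts in the HOXA and MEIS1 values was not tested.

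**Figure D2:**
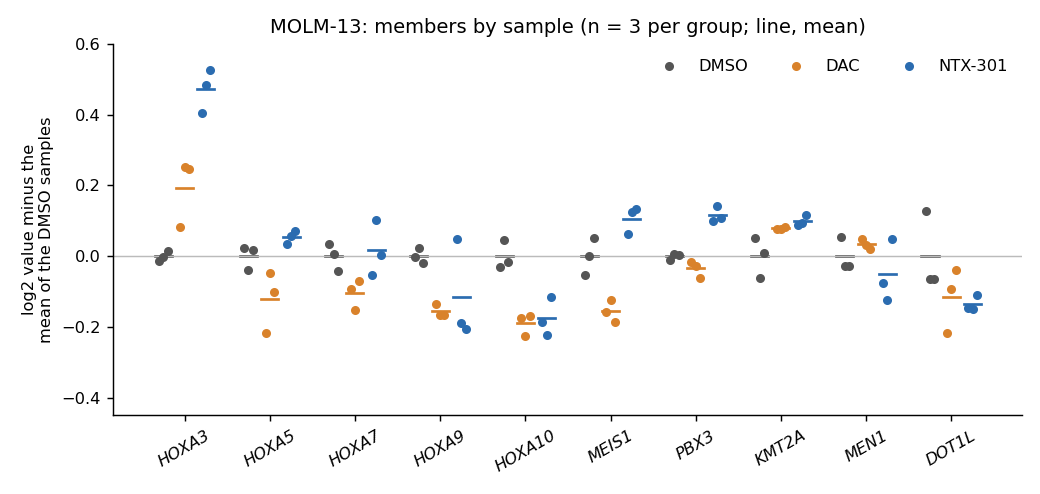
Log2 value minus the mean of the DMSO samples for each of the 10 genes in MOLM-13, 1 point per sample and 1 line per group mean (n = 3 per group). HOXA3 has the highest NTX-301 mean (0.47), MEIS1 splits into DAC below and NTX-301 above DMSO, and HOXA10 is lower with both drugs.

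In HL-60, 0 of the 7 listed genes were called with DAC, beside 24.2% of all genes. With NTX-301, 2 of the 7 were called, beside 37.4%. The 3 listed HOXA genes, HOXA5, HOXA7 and HOXA10, and the cofactor PBX3 were not called with either drug against DMSO. HOXA5 was at 5.14, 5.14 and 5.12 with DMSO, 5.13, 5.16 and 5.12 with DAC, and 5.19, 5.18 and 5.18 with NTX-301. The NTX-301 samples lay above all others, at a difference of 0.049 from DMSO that was not called (adjusted p 0.0834). HOXA7 lay between 4.25 and 4.34 in all 9 samples, and HOXA10 between 6.46 and 6.65, with overlapping groups. PBX3 lay between 7.49 and 7.76, again with overlapping groups. By mean log2 value, HOXA7 lay above 14.1%, HOXA5 above 20.4%, HOXA10 above 30.0% and PBX3 above 37.1% of the genes listed in HL-60. The median range over the 9 samples was 0.12 for HL-60 genes with a mean log2 value from 4 to 7 and 0.17 for those from 12 to 14. Genes with low values thus ranged less, on a normalization that is unknown, so the missing calls do not show that these genes did not respond. In MOLM-13 the same genes were listed at 9.66 to 9.95 (HOXA5), 8.39 to 8.64 (HOXA7), 10.88 to 11.15 (HOXA10) and 12.64 to 12.85 (PBX3). The 2 lines may have been normalized apart, so these levels are set side by side without a test.

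Among the chromatin regulators in HL-60, DOT1L fell with NTX-301 and KMT2A rose slightly. DOT1L had log2 values of 12.98, 12.92 and 13.08 with DMSO, 12.93, 13.01 and 12.85 with DAC, and 12.70, 12.72 and 12.72 with NTX-301. The NTX-301 samples lay below all other HL-60 samples and close together. DOT1L fell by 0.28 (SE 0.040, adjusted p 8.2e-05), a level of 0.824 times DMSO, and the call held under all 17 alternative settings. With DAC the difference was −0.064 and was not called (adjusted p 0.279). KMT2A was at 13.55, 13.50 and 13.50 with DMSO, 13.54, 13.53 and 13.56 with DAC, and 13.59, 13.59 and 13.55 with NTX-301. One NTX-301 sample overlapped the DMSO group, and the difference of 0.059 ± 0.022 had an adjusted p of 0.0458. That call was lost without HL-60 DMSO replicate 2 or 3, DAC replicate 1 or 2, or NTX-301 replicate 1 or 2, with values from 0.050 to 0.059 and adjusted p from 0.0513 to 0.147. It was lost as well with centred samples (0.031, adjusted p 0.339) and with only the groups compared (adjusted p 0.0661), and the difference was 0.099 after quantile normalization. MEN1 was at 10.78, 10.80 and 10.77 with DMSO, 10.74, 10.76 and 10.72 with DAC, and 10.66, 10.77 and 10.66 with NTX-301. Its difference of −0.086 with NTX-301 just missed the threshold (adjusted p 0.0502) and was −0.12 without NTX-301 replicate 2 (adjusted p 0.00823).

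Of the 7 listed genes, 0 were called with DAC in HL-60 by limma and 0 had an unadjusted p under 0.05, beside 24.2% of all 17046 genes tested, 11.6% higher and 12.6% lower. With NTX-301, 1 rose and 1 fell and 4 had an unadjusted p under 0.05, beside 37.4% of all genes, 18.3% higher and 19.2% lower. The median difference of the 7 genes was 0.011 with DAC and 0.038 with NTX-301. With centred samples 0 rose and 2 fell with NTX-301 (2310 higher and 5400 lower among all genes, against 3115 and 3265 as deposited). The granulocyte precursor markers moved with NTX-301 in HL-60, where their log2 sum lay between 18.65 and 18.68, against 19.02 to 19.11 with DMSO and 19.01 to 19.02 with DAC. MPO, the gene of myeloperoxidase, made up 76.5% to 80.7% of that sum, and the sum of the other 5 lay between 16.27 and 16.32 with NTX-301, against 16.78 to 16.92 with DMSO and 16.87 to 16.92 with DAC. Gene by gene, 5 of the 6 fell with NTX-301 (MPO by 0.35 and PRTN3, with the largest difference, by 0.76) and CEBPE rose by 0.14. With DAC, 3 of the 6 rose and 1 fell. Of the 5 listed monocytic markers, 2 rose (ITGAM by 0.43 and CSF1R by 0.42) and 1 fell with NTX-301, and 2 rose and 1 fell with DAC. The part of these shifts in the DOT1L value was not tested.

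**Figure D3:**
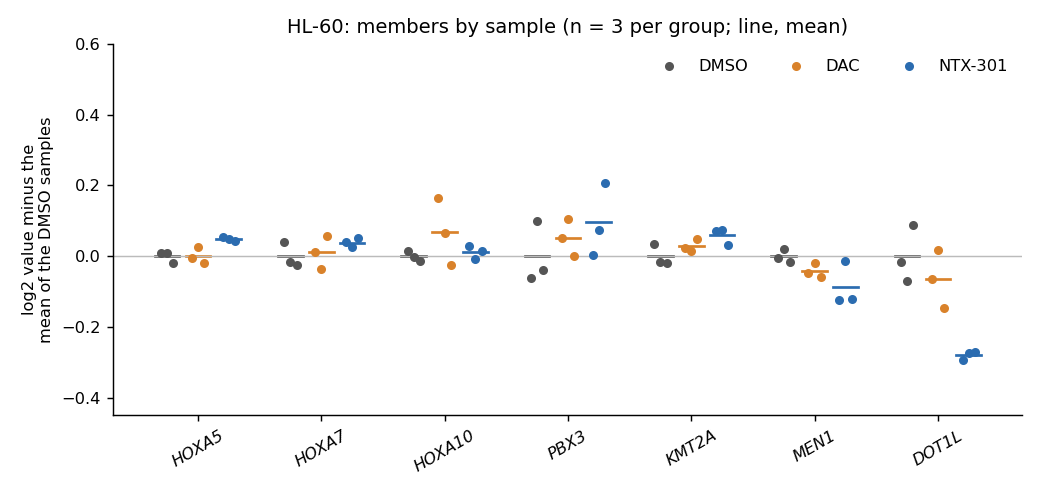
Log2 value minus the mean of the DMSO samples for the 7 genes listed in HL-60, 1 point per sample and 1 line per group mean (n = 3 per group), on the same vertical scale as the MOLM-13 plot. The 3 NTX-301 samples of DOT1L lie together near −0.28, and the NTX-301 means of the other genes lie between −0.086 (MEN1) and 0.095 (PBX3).

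The drugs were then compared with each other, as labelled and with the NTX-301 dose uncertain. In MOLM-13, NTX-301 gave higher values than DAC for MEIS1 by 0.26 ± 0.032 (adjusted p 0.00121), PBX3 by 0.15 ± 0.023 (adjusted p 0.00365), HOXA3 by 0.28 ± 0.053 (adjusted p 0.0101) and HOXA5 by 0.18 ± 0.046 (adjusted p 0.0419). For these 4 genes every NTX-301 sample lay above every DAC sample. The same held for HOXA7 and KMT2A, which were not called. The share of all genes that separate in this way was not counted. The count of 4 higher and 0 lower of 10 stands beside 7.42% of all genes called, 3.01% higher and 4.41% lower, so the share of these genes is above that of all genes. The genes were chosen with results of these data known, so the share is a description. The MEIS1 and PBX3 calls held under all 17 alternative settings. The HOXA3 call was lost without NTX-301 replicate 3 (0.25, adjusted p 0.0517). The HOXA5 call was lost without DMSO replicate 2 or 3, DAC replicate 1 or 3, or any 1 NTX-301 replicate, with values from 0.13 to 0.19 and adjusted p from 0.0520 to 0.136, and with only the groups compared (adjusted p 0.0713).

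For the other members the 95% interval of the NTX-301 minus DAC difference in MOLM-13 was 0.0037 to 0.24 for HOXA7, −0.077 to 0.16 for HOXA9, −0.064 to 0.094 for HOXA10, −0.041 to 0.084 for KMT2A, −0.18 to 0.013 for MEN1 and −0.14 to 0.098 for DOT1L. None was called, with adjusted p from 0.203 (HOXA7) to 0.875 (DOT1L), which does not show that the drugs act alike on them. In HL-60 only DOT1L of the 7 genes was called, lower with NTX-301 than with DAC by −0.22 ± 0.040 (adjusted p 0.00106), beside 30.4% of all genes, 15.4% higher and 15.0% lower. With centred samples the same 0 higher and 1 lower were called there, while the split over all genes went from 2622 higher and 2563 lower to 1818 and 4860. The intervals of the other 6 lay between −0.15 and 0.16.

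Whether a drug effect differed between the lines could be tested for the 7 genes listed in both. HOXA10 alone was called. Its DAC effect was −0.19 in MOLM-13 and 0.069 in HL-60, a difference of −0.26 ± 0.064 (adjusted p 0.00456), and its NTX-301 effect was −0.17 and 0.012, a difference of −0.19 ± 0.064 (adjusted p 0.0257). The HL-60 HOXA10 values were 6.50, 6.49 and 6.48 with DMSO, 6.65, 6.56 and 6.46 with DAC, and 6.52, 6.48 and 6.50 with NTX-301, so none of the HL-60 groups stood apart. The DAC difference held under all 26 alternative settings, none of which changed how reads were split between HOXA10 and the genes it overlaps. The NTX-301 difference was lost without HL-60 NTX-301 replicate 1 (−0.18, adjusted p 0.0522), MOLM-13 DMSO replicate 2 (−0.16, adjusted p 0.0672) or MOLM-13 NTX-301 replicate 2 (−0.16, adjusted p 0.0671), and after quantile normalization (−0.10, adjusted p 0.197). One of 7 stands beside 30.0% of the 15474 genes tested for DAC, 12.1% higher and 17.9% lower, and beside 40.0% for NTX-301, 17.6% higher and 22.4% lower. With centred samples, 3 of the 7 were lower for DAC (1359 higher and 4382 lower over all genes, against 1871 and 2767 as deposited). For DOT1L, the NTX-301 effect was −0.14 in MOLM-13 and −0.28 in HL-60, a difference of 0.14 with an interval from −0.010 to 0.30, and was not called (adjusted p 0.130). It was called without MOLM-13 DMSO replicate 1 (0.21, adjusted p 0.0171).

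The rest of the HOX genes were sparse in both tables. Of 24 others looked for, 6 were listed in MOLM-13 and 5 in HL-60, all in the HOXA cluster. In MOLM-13, HOXA11, the gene next to HOXA10, fell by 0.30 with DAC (SE 0.045, adjusted p 0.00035) and by 0.23 with NTX-301 (adjusted p 0.00121). It was the only 1 of the 6 called with either drug, beside 36.6% (DAC) and 45.1% (NTX-301) of all genes. HOXA2 (−0.035 with DAC) and HOXA6 (0.16 with NTX-301, adjusted p 0.0688) were not called. In HL-60, HOXA11 rose by 0.15 with DAC (adjusted p 0.0137), a call lost without DMSO replicate 3 (0.13, adjusted p 0.0588) or DAC replicate 3 (0.14, adjusted p 0.0525), and after quantile normalization (0.12, adjusted p 0.0666). Its DAC effect in MOLM-13 was lower than in HL-60 by −0.45 (adjusted p 2.42e-05). The list medians were −0.025 and 0.074 in MOLM-13 and 0.026 and 0.014 in HL-60, for DAC and NTX-301. Along the cluster in MOLM-13, the called falls were in HOXA9, HOXA10 and HOXA11 with DAC and in HOXA10 and HOXA11 with NTX-301, and the called rises were in HOXA3. Of 7 noncoding and readthrough transcripts of the locus, 5 were listed in MOLM-13. There, 0 were called with DAC by limma (1 at an unadjusted p under 0.05), beside 36.6% of all genes. With NTX-301, HOXA10-HOXA9 alone was called, beside 45.1% of all genes. In HL-60, 2 were listed, and HOXA11-AS, the antisense neighbour of HOXA11, rose by 0.080 with NTX-301 (adjusted p 0.00692). With centred samples HOXA11-AS was not called (0.052, adjusted p 0.0772).

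**Figure D4:**
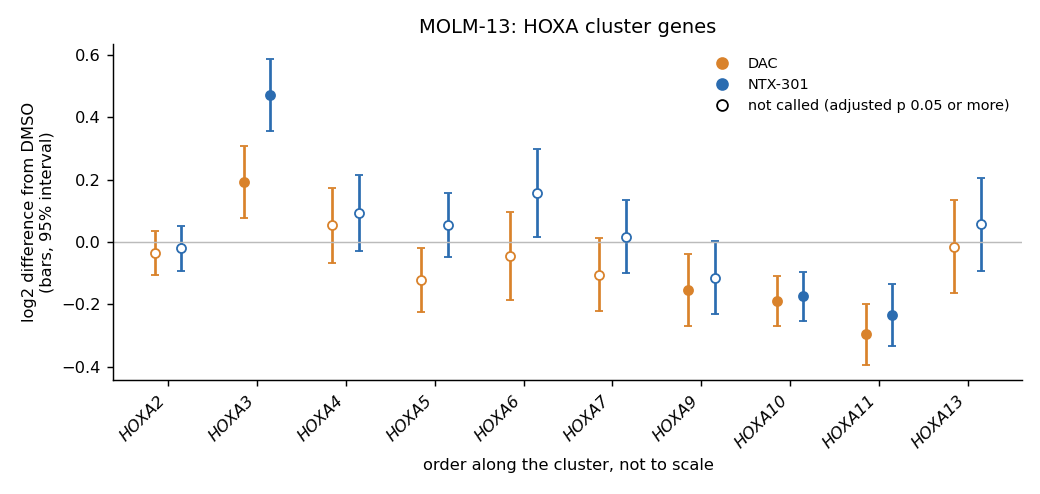
Log2 difference from DMSO with its 95% interval for 10 HOXA genes listed in MOLM-13, in their order along the cluster (not to scale), for DAC and NTX-301 (n = 3 per group), with open symbols for genes not called. HOXA3 is the called rise (0.19 and 0.47) and HOXA10 and HOXA11 the genes that fell with both drugs.

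Of the other TALE cofactors, 2 of the 6 listed in MOLM-13 were called with each drug, beside 36.6% (DAC) and 45.1% (NTX-301) of all genes. Both fell with DAC, PKNOX1 (−0.15, adjusted p 0.0233) and TGIF2 (−0.093, adjusted p 0.0413), and both fell with NTX-301 (−0.12, adjusted p 0.048, and −0.13, adjusted p 0.00681). For PKNOX1 the DAC call was lost without DMSO replicate 1 or 2 or DAC replicate 3 (−0.099 to −0.15), and the NTX-301 call without any DMSO replicate, DAC replicate 1, or NTX-301 replicate 1 or 3 (−0.10 to −0.13), as well as without the mean-variance trend (adjusted p 0.0605) or after quantile normalization (−0.12, adjusted p 0.0774). For TGIF2 the DAC call was lost without 7 of the 9 replicates, all but DMSO replicate 1 and NTX-301 replicate 3 (−0.075 to −0.10), and with only the groups compared (adjusted p 0.0569). After quantile normalization neither TGIF2 difference was called (−0.046, adjusted p 0.304, with DAC, and −0.063, adjusted p 0.136, with NTX-301). In HL-60, TGIF1, a repressor of the class, fell with DAC (−0.088, adjusted p 0.0226), and PBX2 rose with NTX-301 (0.12, adjusted p 0.00237), each 1 of 5 listed, beside 24.2% (DAC) and 37.4% (NTX-301) of all genes. The TGIF1 call was lost without DMSO replicate 2 or 3 or DAC replicate 1 or 3 (−0.071 to −0.088), or after quantile normalization (−0.072, adjusted p 0.0635). The list medians were −0.056 and 0.028 in MOLM-13 and −0.038 and −0.015 in HL-60, for DAC and NTX-301.

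The 10 genes grouped with KMT2A and menin were all listed. They include KMT2B and TASP1, so not all are subunits that work with KMT2A. In MOLM-13, 1 of the 10 rose and 3 fell with DAC, and 1 rose and 4 fell with NTX-301, shares near the 36.6% and 45.1% of all genes called. WDR5, a core subunit shared by the KMT2 methyltransferases, fell by 0.22 with DAC (adjusted p 9.39e-05) and by 0.30 with NTX-301 (adjusted p 7.27e-06). DPY30, another core subunit, fell by 0.19 (adjusted p 0.00575) and by 0.25 (adjusted p 0.000875). KMT2B, the close relative of KMT2A, rose by 0.29 (adjusted p 0.00267) and 0.25 (adjusted p 0.00423), and was the 1 rise counted with each drug. In HL-60, 1 rose and 2 fell with DAC, beside 24.2% of all genes, and 5 rose and 2 fell with NTX-301, beside 37.4%. KAT8, a histone acetyltransferase, fell there by 0.22 with DAC (adjusted p 4.63e-05) and by 0.18 with NTX-301 (adjusted p 9.54e-05), and ASH2L rose by 0.12 and 0.13. The ASH2L call with DAC was lost without DMSO replicate 3 (0.093) or DAC replicate 1 or 3 (0.11 each). The list medians were −0.055 and −0.055 in MOLM-13 and −0.020 and 0.027 in HL-60, for DAC and NTX-301.

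Among 19 subunits of the DOT1L, super elongation and PAF1 complexes, 0 rose and 5 fell with DAC in MOLM-13, beside 36.6% of all genes called, and 4 rose and 6 fell with NTX-301, beside 45.1%. PAF1 fell by 0.34 with DAC (adjusted p 4.22e-05) and by 0.27 with NTX-301 (adjusted p 0.000119), and LEO1 of the same complex fell by 0.18 (adjusted p 0.000566) and by 0.19 (adjusted p 0.000272), the latter by 0.12 after quantile normalization. In HL-60, where 18 were listed, LEO1 rose with both DAC (0.21, adjusted p 5.37e-05) and NTX-301 (0.28, adjusted p 1.28e-06), and the difference between lines for LEO1 was −0.39 with DAC and −0.47 with NTX-301. MLLT3 also fell in HL-60, by 0.14 with DAC, a call (adjusted p 0.0181) that was lost without DMSO replicate 1 (−0.11, adjusted p 0.0708) or DAC replicate 2 (−0.11, adjusted p 0.0836), and by 0.16 with NTX-301 (adjusted p 0.0047). In that line 5 rose and 2 fell with DAC, beside 24.2% of all genes, and 5 rose and 6 fell with NTX-301, beside 37.4%. The list medians were −0.011 and −0.010 in MOLM-13 and −0.0056 and −0.0020 in HL-60, for DAC and NTX-301.

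Of 20 genes described as targets of KMT2A fusions or of HOXA9 and MEIS1, 18 were listed in MOLM-13. There, 2 rose and 9 fell with DAC, with a median of −0.10, beside 36.6% of all genes called (15.4% higher and 21.2% lower). With NTX-301, 7 rose and 8 fell, with a median of −0.00074, beside 45.1% (20.3% higher and 24.8% lower). SORL1, a sorting receptor, rose by 0.75 (DAC, SE 0.030, adjusted p 5.77e-08) and 0.59 (NTX-301, adjusted p 1.82e-07), and PIM1, a survival kinase, rose by 0.28 and 0.35. FLT3, the receptor tyrosine kinase that carries an activating duplication in this line, fell by 0.29 with DAC (adjusted p 7.58e-06) and by 0.21 with NTX-301 (adjusted p 4.65e-05), and by 0.19 and 0.075 after quantile normalization, with both calls held. HMGB3, a chromatin protein, fell by 0.34 and 0.35. BCL2, the apoptosis inhibitor, fell by 0.22 with DAC (adjusted p 2.28e-05) and by 0.089 with NTX-301 (adjusted p 0.00697), and quantile normalization brought these to −0.14 and 0.019. MYB, a progenitor transcription factor, fell by 0.11 with each drug in MOLM-13, and quantile normalization turned those values to 0.010 with DAC and 0.026 with NTX-301.

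In HL-60, 8 of the 19 listed targets rose and 5 fell with DAC, with a median of 0.049, beside 24.2% of all genes called, and 7 rose and 5 fell with NTX-301, with a median of 0.045, beside 37.4%. RUNX2, a transcription factor, rose by 0.37 (DAC, adjusted p 8.81e-07) and 0.43 (NTX-301, adjusted p 7.01e-08), and MYB rose by 0.27 and 0.21. CCND3, a cyclin of the early cell cycle, rose by 0.60 with NTX-301 (adjusted p 2.79e-09). ID2, an inhibitor of helix-loop-helix factors, rose by 0.54 with NTX-301 (adjusted p 5.96e-08) and fell by 0.18 with DAC (adjusted p 0.00203). The difference between lines was −0.73 for CCND3 with NTX-301 (adjusted p 5.95e-11) and −0.38 for MYB with DAC (adjusted p 1.11e-07).

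**Figure D5:**
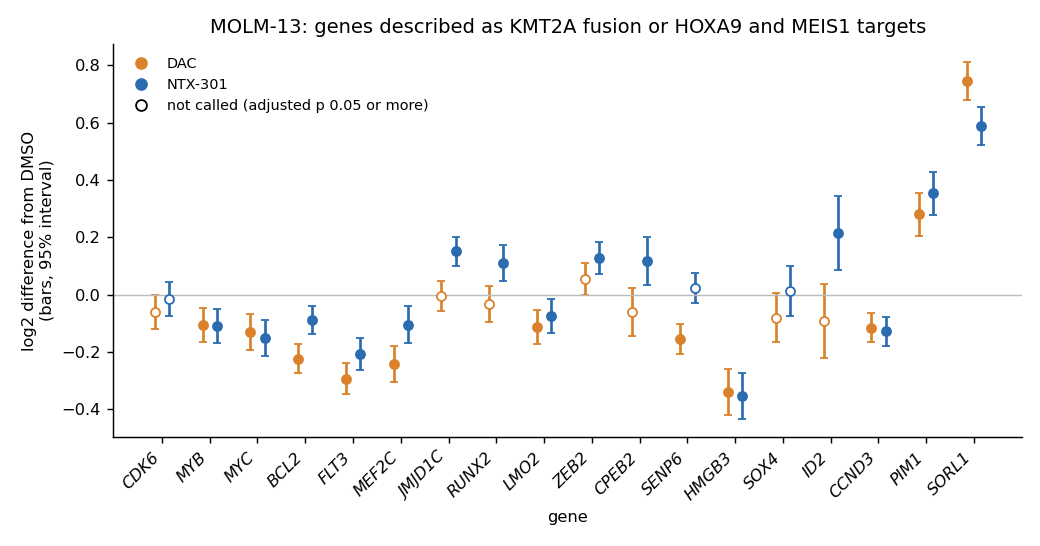
Log2 difference from DMSO with its 95% interval in MOLM-13 for the 18 listed genes described as targets of KMT2A fusions or of HOXA9 and MEIS1 (n = 3 per group), with open symbols for genes not called. SORL1 (0.75 and 0.59) and PIM1 lie highest, and HMGB3 (−0.34 and −0.35) and FLT3 lowest.

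The genes whose log2 values ran most like those of 3 members over the 9 samples of a line are given as a description, since samples of 1 group share a treatment. For MEIS1 in MOLM-13 they were KDM5B (Pearson's r 0.96), TMEM117 (0.95) and NCAM2 (0.94), among 8737 genes searched. For HOXA9 they were PPIL3 (0.92), TREX1 (0.90) and TXNDC12 (0.88). For KMT2A they were CNOT4 (0.98), SETD5 (0.97) and STX11 (0.97) in MOLM-13, and RNR2 (0.95), LOC100506672 (0.94) and RIC8B (0.94) in HL-60.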

How the data were processed

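Stranded total RNA libraries of 18 samples (6 groups, n = 3) were sequenced. Each deposited file holds 1 value per gene on a log2 scale. The unit was read from the values, and the files used here give no counts, so depth per sample is unknown and no interval that needs it is given. Per the submitters' processing notes, the tools were FastQC, Trimmomatic 0.38, HISAT2 and StringTie and the build hg19. How the values were normalized, which annotation served and whether strand was used are not given in the sources used here.

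Tests of the log2 values used limma 3.58.1 under R 4.3.3 (lmFit, eBayes with trend, two-sided), with the 9 samples of a line in 1 fit (6 residual degrees of freedom), and all 18 for differences between lines (12). A gene entered the test when 3 or more samples had a linear value of 1 or more, which left out 64 genes (HL-60) and 0 genes (MOLM-13). Benjamini-Hochberg adjustment covered every gene tested, at a threshold of 0.05. The fits were tested on simulated data. Gene IDs matched RefSeq (GRCh38.p14) in 97.9% (HL-60) and 98.0% (MOLM-13), used for names and neighbours.

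The named genes are all 10 members, the 3 list genes with the lowest adjusted p in each drug-against-DMSO contrast, of which a selection is printed (1 item is not reported here), MLLT3 and HOXA10-HOXA9, and the 3 genes of highest Pearson's r. A gene named by 1 contrast is also given in others. The members and lists were chosen with earlier results of these data known. Alternatives covered scaling, the filter, the variance model, the samples in the fit, the replicate number as a block and each replicate left out.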

Additional observations from a re-analysis of the deposited data

Results flagged for a closer look

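HOXA10 is given here because the effect of each drug differed between HL-60 and MOLM-13 when that difference was tested directly (limma, all 18 samples, over the 15474 genes tested in both). For DAC the MOLM-13 effect less the HL-60 effect was −0.26 on the log2 scale (adjusted p 0.00456), and all 3 MOLM-13 DAC samples lay below all 3 DMSO samples. For NTX-301 it was −0.19 (adjusted p 0.0257), again with 3 of 3 MOLM-13 samples below DMSO. HOXA10 stood near a log2 value of 6.5 in HL-60, where the median gene with a mean from 4 to 7 ranged over 0.12 in the 9 samples, and near 11.1 with DMSO in MOLM-13. HOXA10 overlaps HOXA10-AS and HOXA10-HOXA9 in the annotation, and both were listed for MOLM-13 only. The part of the lower level in HL-60, and of the split of reads between these genes, in the difference was not tested.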

How the results depend on the processing

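Of 1226 values of the members under alternatives, 1116 kept their direction and side of the threshold, 54 lost a call, 27 gained one and 29 changed sign, 0 of them called in either setting. The number of members called moved from 2 to 1 for NTX-301 in HL-60 with only the groups compared (1 to 2 with a replicate left out). For DAC in MOLM-13 it moved from 5 to 8 with centred samples and to 3 without the variance trend (2 to 4 with a replicate left out). For NTX-301 in MOLM-13 it was 5, and 3 to 6 with a replicate left out. For NTX-301 against DAC there it was 4, and 2 to 4. For the DAC difference between lines it moved from 1 to 3 with centred samples and 2 after quantile normalization (1 to 2 with a replicate left out), and for NTX-301 from 1 to 0 after quantile normalization (0 to 2). In HL-60, 0 members for DAC and 1 for NTX-301 against DAC were called in every leave-one-out fit. Leaving out NTX-301 replicate 3 in MOLM-13 took away 2 calls in each of its 2 contrasts.

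With centred samples the sign changed for HOXA10 with NTX-301 (−0.016) and HOXA7 against DAC (−0.0017) in HL-60, and for MEN1 with DAC (−0.0030) and HOXA7 with NTX-301 (−0.013) in MOLM-13. After quantile normalization it changed for HOXA5 with DAC (−0.017) and HOXA10 with NTX-301 (−0.031) in HL-60, for PBX3 (0.039), AFF1 (0.026), MLLT3 (−0.0090) and MYB (0.010) with DAC, HOXA7 (−0.075), BCL2 (0.019) and MYB (0.026) with NTX-301 and DOT1L against DAC (0.0014) in MOLM-13, and for PBX3 (0.032) and DOT1L (0.0074) in the DAC difference between lines. AFF1 with DAC was called as deposited (−0.058, adjusted p 0.048) and in 4 of the 17 alternatives, and was lost without any 1 of 8 replicates. The cause was not tested.

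With a replicate left out, ranges that crossed 0 were, in HL-60, HOXA5 (−0.012 to 0.011) and HOXA7 (−0.012 to 0.035) with DAC and PBX3 against DAC (−0.013 to 0.088). In MOLM-13 they were HOXA10-HOXA9 with DAC (−0.15 to 0.25), HOXA7 with NTX-301 (−0.025 to 0.053), and against DAC DOT1L (−0.070 to 0.020), HOXA10 (−0.015 to 0.038) and HOXA9 (−0.042 to 0.086). Between lines they were DOT1L for DAC (−0.096 to 0.012), and for NTX-301 HOXA5 (−0.014 to 0.017), HOXA7 (−0.063 to 0.014), MEN1 (−0.013 to 0.073) and PBX3 (−0.028 to 0.077).

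The replicate numbers showed no clear pairing of the samples. Deviations of same-numbered samples correlated from −0.095 to 0.14 in HL-60 and from −0.21 to 0.077 in MOLM-13. For samples with different numbers the ranges were −0.16 to 0.14 and −0.12 to 0.21. With the replicate number as a block the members called with DAC and NTX-301 were 0 and 2 (HL-60) and 4 and 5 (MOLM-13), those for NTX-301 against DAC 1 and 3, and 1 for each difference between lines. KMT2A with NTX-301 in HL-60 (adjusted p 0.0549), KMT2A with DAC (0.0689) and HOXA5 against DAC (0.0718) in MOLM-13 lost their calls, and MEN1 with NTX-301 in HL-60 gained one (0.0355).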
